A study of Mus musculus with 9 samples.

Results

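Glucose uptake, glycolysis, lactate export and the hypoxia response were followed through 34 genes in 9 cultures of mouse articular chondrocytes. The genes were chosen by symbol, with no threshold on a measured value, out of the 55471 genes listed for every culture. The 34 symbols took 35 gene identifiers, because Aldoa had a second identifier with 2 to 22 counts per culture, which was left aside. The cells were taken from the knee cartilage (femoral condyles and tibial plateaus) of wild-type mice on postnatal day 5, and all cultures were grown on plates coated with COLpep, a collagen peptide that OSCAR binds. There were 3 groups of 3 cultures. Ad-Control cells received a control adenovirus, Ad-OSCAR cells received an adenovirus that makes them express the collagen receptor OSCAR, and the third group received Ad-OSCAR and then 5-aminosalicylic acid (5-ASA), an anti-inflammatory drug. The sample annotations give 3 days of culture, infection at 400 MOI for 2 h and 36 h before 5-ASA, whereas the study's methods give 2 days, 800 MOI and 24 h with or without 10 µM 5-ASA. In general terms the study states that n counts biologically independent samples, mice or specimens, and that its data came from at least 3 independent experiments. It gives no n for the sequencing, and no source says whether the cultures of a group came from separate animals. The p-values therefore measure the spread between these cultures, which may be technical. OSCAR was raised by a virus rather than by disease.

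Glycolysis splits glucose into pyruvate through a chain of enzymes, most of which exist as several isozymes coded by different genes. Cartilage has no blood vessels, and its cells are known to draw most of their energy from glycolysis and to turn pyruvate into lactate. When oxygen is scarce, the factors HIF-1α (Hif1a) and HIF-2α (Epas1) are no longer marked for destruction by the prolyl hydroxylases (Egln1, Egln3), and they raise transcription of many glycolytic genes and of genes for vessel growth, acid balance and mitochondrial turnover. The HIF proteins are controlled largely by their stability, and no protein and no oxygen level was measured here.

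The summed estimated counts ranged from 19733431 to 28192725 per culture, and the overexpressed gene checked the labels, with Oscar at 3 to 4 counts in Ad-Control, 173445 to 187278 in Ad-OSCAR and 80766 to 94199 after 5-ASA. Of 10 chondrocyte markers, 9 were lower and 1 (Prg4) was higher with Ad-OSCAR, and their summed level in TMM-normalized CPM (counts scaled to a common library size) was 38160 to 43760 in Ad-Control, 3259 to 3593 in Ad-OSCAR and 3658 to 4048 after 5-ASA. All 4 erythroid markers, 4 of 8 macrophage and leukocyte markers (Ptprc, Adgre1, Itgam and Tyrobp), 3 of 6 muscle markers and 2 of 5 endothelial markers (Cdh5 and Emcn) had at most 3 counts in every culture. The summed macrophage and leukocyte list, of which 3 (Cd68, Lyz2 and Cd14) were higher with Ad-OSCAR, was at 15.6 to 18.3 CPM in Ad-Control, 35.5 to 36.2 in Ad-OSCAR and 29.4 to 30.7 after 5-ASA. The endothelial list (Tek higher) did not exceed 2.80 CPM and the muscle list (Tnnt3 lower) 2.26 CPM, and the fibroblast list, with 1 gene higher and 4 lower of 6, was at 13190 to 14050, 9580 to 10440 and 11690 to 12920 CPM. Whether these shifts in cell state had a part in the results on the 34 genes was not tested, and in bulk RNA fewer cells that express a gene and less RNA per cell cannot be told apart.

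The HIF factors bind a short core with the letters ACGTG or GCGTG, and the promoters of the members were searched for both on either strand, where they read CACGT and CACGC on the opposite strand. RefSeq promoters (build GRCm38.p6, the 250 bases before each start) were held for 31 of the 34 genes, in 45 windows, with none for Slc2a3, Epas1 and Ndrg1. At least one core stood in 35 of the 45 windows (77.8%), against 38.6% of the 32817 windows of all genes. The share was 26 of 34 windows (76.5%) for members that were lower with Ad-OSCAR and 7 of 9 (77.8%) for those that were higher. Known HIF targets were among the genes chosen, and the windows of all genes include genes not tested here, so the contrast is no test. A palindromic CACGTG counts on both strands, windows of one gene can overlap, and a match of 5 letters is a description and not a binding site. The promoters of 4 genes are shown because they hold the core beside opposite responses to Ad-OSCAR, Pgk1 (chrX:106186850-106187099, plus strand) and Pdk1 (chr2:71872974-71873223, plus strand) from the genes that fell, and Egln3 (chr12:54203875-54204124, minus strand) and Car9 (chr4:43506776-43507025, plus strand) from the genes that rose. Each runs from 5′ to 3′ along the gene, and capitals mark the core.
Pgk1: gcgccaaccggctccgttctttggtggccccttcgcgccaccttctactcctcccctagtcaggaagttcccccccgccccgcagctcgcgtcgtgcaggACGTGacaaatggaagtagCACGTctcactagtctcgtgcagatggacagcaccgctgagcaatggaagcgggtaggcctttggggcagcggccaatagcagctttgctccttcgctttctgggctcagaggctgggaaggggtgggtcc
Pdk1: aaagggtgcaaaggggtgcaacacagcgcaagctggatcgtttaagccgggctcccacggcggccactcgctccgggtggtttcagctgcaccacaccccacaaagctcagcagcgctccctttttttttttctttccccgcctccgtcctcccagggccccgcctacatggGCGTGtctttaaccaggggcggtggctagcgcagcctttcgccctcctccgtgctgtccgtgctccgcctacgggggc
Egln3: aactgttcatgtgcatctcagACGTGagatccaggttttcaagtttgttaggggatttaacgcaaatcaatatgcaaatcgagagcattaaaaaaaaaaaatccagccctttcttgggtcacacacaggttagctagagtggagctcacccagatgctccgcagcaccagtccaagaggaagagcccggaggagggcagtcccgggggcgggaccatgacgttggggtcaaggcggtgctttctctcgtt
Car9: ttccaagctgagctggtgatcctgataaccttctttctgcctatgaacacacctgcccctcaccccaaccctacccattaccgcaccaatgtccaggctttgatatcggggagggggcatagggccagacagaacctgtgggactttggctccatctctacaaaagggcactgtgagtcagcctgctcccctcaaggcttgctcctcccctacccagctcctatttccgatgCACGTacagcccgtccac

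All 34 genes passed the filter on low counts and were tested in every comparison. Levels of different genes were compared in TPM, which corrects counts for transcript length, and are given as mean ± SD of 3 cultures. Gapdh, the enzyme that oxidizes glyceraldehyde phosphate, had the highest mean level in Ad-Control cultures at 5466 ± 132 TPM. It was followed by Ldha, which makes lactate, at 3899.6 ± 58.7, by Pkm, which makes pyruvate, at 3210.1 ± 79.5, by Aldoa at 2161 ± 107 and by Eno1 at 2078 ± 47.4 TPM, and neighbours in this order differed beyond their SDs except Aldoa and Eno1. These 5 genes held 66.1% of the TPM of the 34 genes in Ad-Control, 66.0% in Ad-OSCAR and 63.4% after 5-ASA. At the other end stood the neuronal-type glucose transporter Slc2a3 at 2.23 ± 0.599 TPM, the bifunctional regulator Pfkfb4 at 4.39 ± 0.997 and the HIF target Ankrd37 at 9.23 ± 1.31, and these 3 genes had the widest intervals. Hif1a (361 ± 14.9 TPM) was well above Epas1 (54.9 ± 3.35 TPM). Summed over the 34 genes, TPM came to 2.51% to 2.58% of the total in Ad-Control, 1.77% to 1.80% in Ad-OSCAR and 1.66% to 1.70% after 5-ASA, and the 3 ranges did not overlap.

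**Figure D1:**
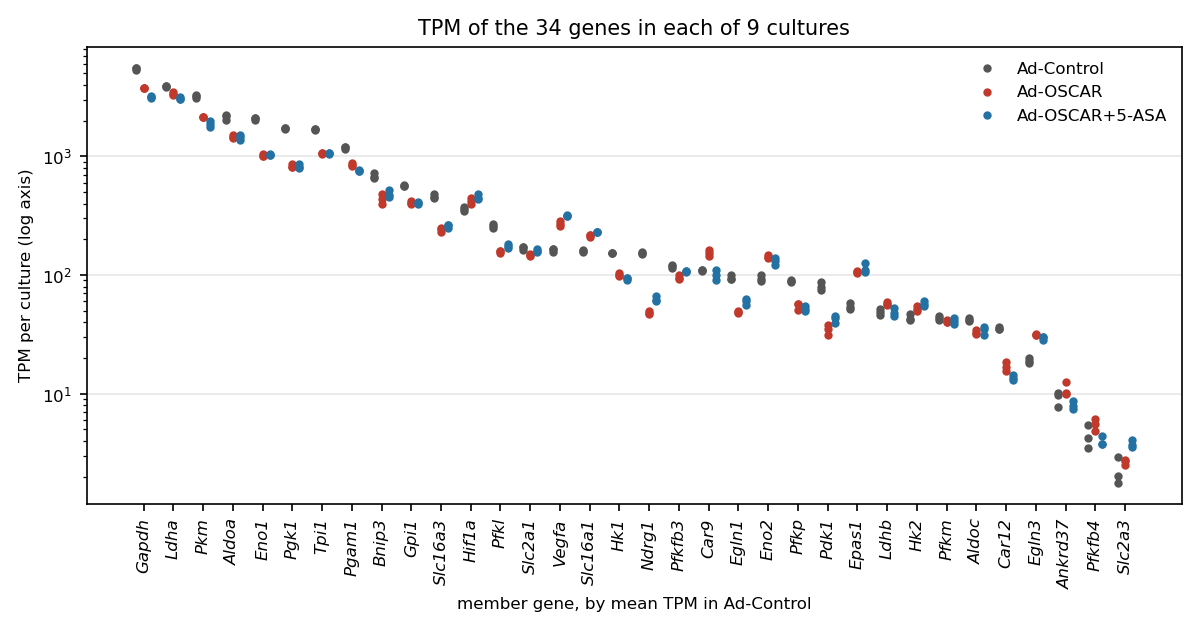
TPM on a log axis of each of the 34 genes in each of the 9 cultures, ordered by the mean in Ad-Control; each point is 1 culture. Levels span from 5466 TPM for Gapdh to 2.23 TPM for Slc2a3, and the Ad-Control points of most abundant enzymes lie above those of both other groups.

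The first comparison asked what OSCAR overexpression did to these genes, and most of the glycolytic chain was lower with Ad-OSCAR while both HIF factors and some of their targets were higher. At an adjusted p below 0.05 (edgeR quasi-likelihood test, Benjamini-Hochberg over 15362 genes), 32 of the 34 genes differed, beside 65% of all genes tested. Of these, 22 were lower (32.2% of all genes tested were) and 10 were higher (32.7% of all genes tested were), and Pfkfb4 and Ankrd37 did not pass. The median log2 fold change of the 34 genes was -0.46, against 0.02 over all genes tested. Of the 17 enzymes from hexokinase to lactate dehydrogenase, 14 fell and 3 rose (Hk2, Eno2 and Ldhb), with a median of -0.56. By the study's own rule (|log2FC| > 1.5 and adjusted p below 0.05), which 9.96% of all genes met, Ndrg1 was the only member called. The values of the 2 groups did not overlap for 31 of the 34 genes, beside 69% of all genes tested. Of the 22 genes called lower, 21 kept their call in each of the alternatives tried, all but Pfkm, and of the 10 called higher 8 did, all but Slc2a3 and Ldhb.

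**Figure D2:**
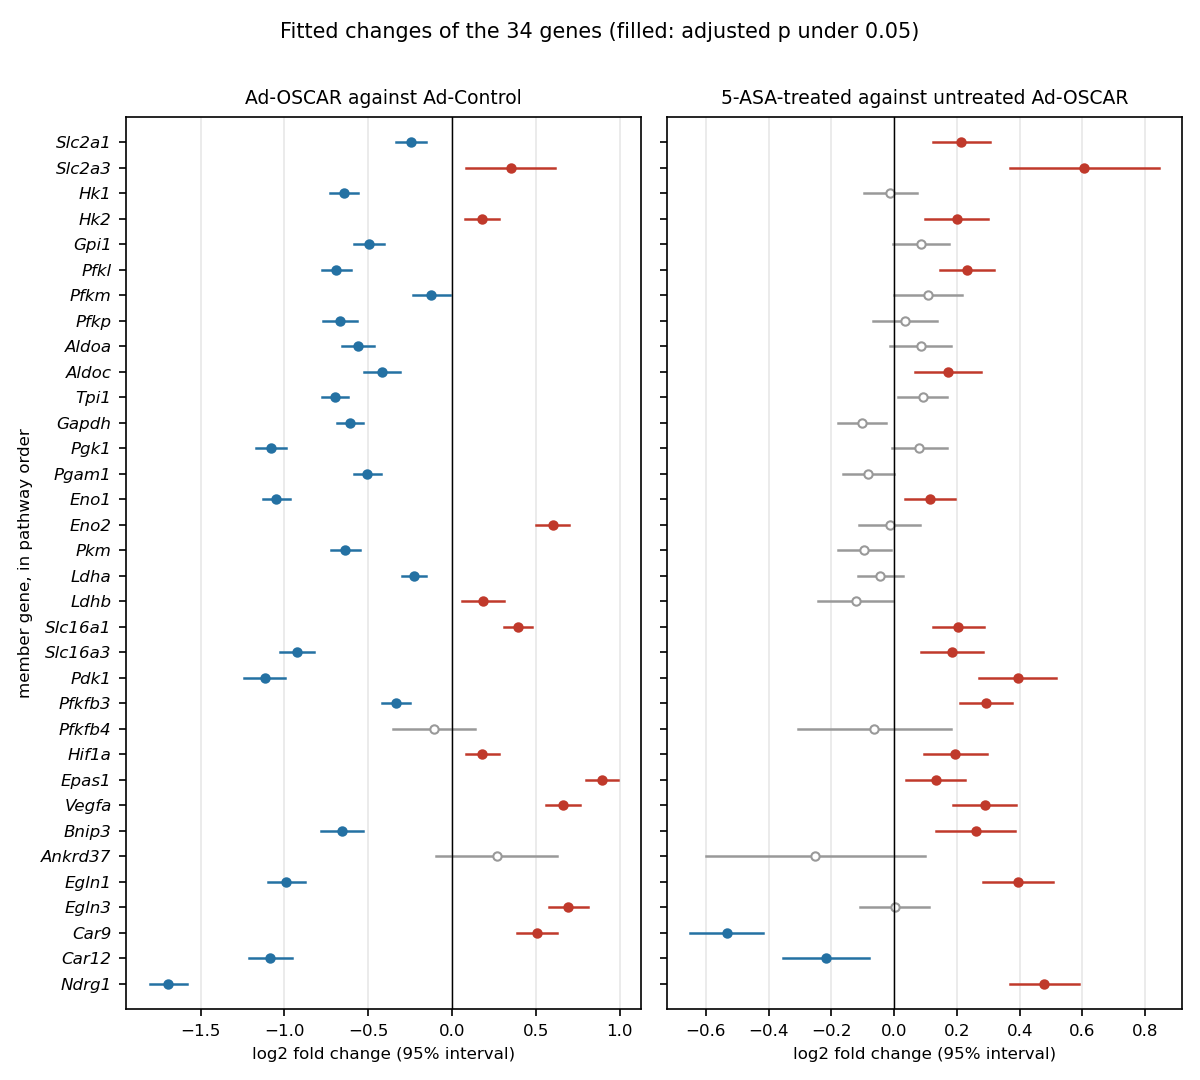
Fitted log2 fold changes of the 34 genes with 95% intervals, for Ad-OSCAR against Ad-Control (left) and 5-ASA-treated against untreated Ad-OSCAR cells (right); filled points passed an adjusted p of 0.05, blue lower and red higher, and open points did not. In the left panel the enzymes from Gpi1 to Pgk1 all lie left of 0, while Epas1, Vegfa, Egln3 and Car9 lie right of it; the axes of the panels differ in scale.

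Glucose enters chondrocytes mainly through the transporter coded by Slc2a1 (GLUT1), which had 290.1, 281 and 294 CPM in Ad-Control, 247, 246 and 238 in Ad-OSCAR and 292, 275 and 281 after 5-ASA. All Ad-OSCAR values lay below the other 6, and Slc2a1 fell by 0.24 on the log2 scale (SE 0.04, adjusted p = 7.31e-05). Slc2a3 (GLUT3), a transporter of high affinity, had 4.11, 5.26 and 4.07 CPM in Ad-Control, 5.70, 6.36 and 5.24 in Ad-OSCAR and 8.39, 9.38 and 8.50 after 5-ASA. Its Ad-Control and Ad-OSCAR values overlapped, and its rise of 0.35 (SE 0.13, adjusted p = 0.0221) was lost without Ad-Control culture 1 or 3, without Ad-OSCAR culture 2, with DESeq2 and on TPM.

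Hk1 and Hk2, hexokinases that trap glucose in the cell as glucose 6-phosphate, went in opposite directions. Hk1 had 365, 362 and 369 CPM in Ad-Control and 236, 233 and 232 CPM in Ad-OSCAR cultures, a fold of 0.640 (log2 change -0.64, SE 0.04, adjusted p = 9.81e-11). Hk2, the inducible isozyme that binds mitochondria, had 94.8, 97.7 and 95.5 CPM in Ad-Control and 113, 111 and 102 CPM in Ad-OSCAR cultures (log2 change 0.18, SE 0.05, adjusted p = 0.0032). Neither gene's groups overlapped. Gpi1, the isomerase of the next step, had 618, 595 and 639.8 CPM in Ad-Control and fell to 425, 447 and 441 CPM in Ad-OSCAR cultures.

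Phosphofructokinase commits the sugar to glycolysis, and its 3 genes were all lower with Ad-OSCAR, though unequally. Pfkl, the most abundant by TPM, had 491, 472 and 480.4 CPM in Ad-Control and 300.2, 305 and 289.8 in Ad-OSCAR cultures, a log2 change of -0.69 (SE 0.04). Pfkp changed by -0.67 (SE 0.05), from 171, 171 and 167 to 108, 104 and 109 CPM. Pfkm changed by only -0.12 (SE 0.05, adjusted p = 0.0461) with 73.5, 69.0 and 68.3 CPM in Ad-Control against 66.6, 64.8 and 62.1 CPM, and this call was lost in 12 of 19 alternatives, among them the one with the replicate number as a block (adjusted p = 0.0503) and library totals as the only scaling, where the change was 0.00.

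Aldolase cuts the 6-carbon sugar and triose phosphate isomerase interconverts the products. Aldoa had 1610.5, 1510.3 and 1655 CPM in Ad-Control and 1071, 1133 and 1035 CPM in Ad-OSCAR cultures, a fold of 0.678. Aldoc, the minor isozyme, fell by 0.42 on the log2 scale, from 42.2, 42.9 and 45.6 to 32.7, 33.4 and 31.6 CPM. Tpi1 fell from 1385, 1393 and 1427 to 848, 881 and 862 CPM, and no value of these 3 genes overlapped between the groups. Their adjusted p-values were 4.62e-09, 8.25e-07 and 1.13e-11.

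In the lower chain, Pgk1 and Eno1 showed the largest falls of the 17 enzymes. Pgk1 (chrX:106187100-106203699), which makes the first ATP, had 1674, 1703 and 1714 CPM in Ad-Control and 781, 808 and 820.0 CPM in Ad-OSCAR cultures. The Ad-OSCAR cultures thus had 0.473 times the Ad-Control level (log2 change -1.08, SE 0.04, adjusted p = 9.42e-14). Eno1 (chr4:150236721-150248879), the enolase of most tissues, fell as far, from 2239, 2154 and 2261 to 1072, 1088 and 1055 CPM (log2 change -1.05, SE 0.04, adjusted p = 3.92e-14). Eno2, the isozyme best known from neurons, moved the other way, from 100.3, 105 and 109 to 162, 160.2 and 154 CPM (log2 change 0.60, SE 0.05, adjusted p = 2.1e-09). Gapdh had 2775, 2752 and 2833 CPM in Ad-Control and 1775, 1875 and 1842 CPM in Ad-OSCAR cultures, so this common reference gene was itself at 0.657 times its control level (adjusted p = 6.29e-11). Pgam1, the mutase, changed by -0.50 (SE 0.04), from 1106, 1137 and 1155 to 789.6, 792 and 813 CPM, and Pkm, the pyruvate kinase, by -0.64 (SE 0.04). Pkm had 4198, 4040.3 and 4307 CPM against 2651, 2749 and 2672 CPM, and the 2 groups of both genes stood clear of each other.

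Several of these genes have near-identical copies that share their reads. Copies of Gapdh, 41 of them, held 24.1% to 27.5% of the counts of gene and copies together, 4 copies of Eno1, with Eno1b the largest, held 36.2% to 40.0%, the copy of Ldhb held 7.74% to 12.9%, and those of Pkm and Pgk1 held 2.96% to 6.88% and 4.99% to 5.59%. The sharing between Eno1 and its copies is therefore uncertain. Most counts at the Pkm copies were those of Gm49759, which overlaps Pkm itself on the same strand. Gm49759 had 2553, 3221 and 2403 unscaled counts in Ad-Control and 4744, 3985 and 4610 in Ad-OSCAR cultures. With the counts of all copies added to their genes, none of the 102 values of the 34 genes in the 3 comparisons changed direction or side of the threshold. Of the 34 genes, 15 overlap a gene on the other strand, such as Hk1 with Hk1os, Pfkm with Senp1, Pfkp with Pitrm1, Aldoa with Fam57b, Tpi1 with Spsb2, Gapdh with Iffo1 and Ankrd37 with Ufsp2 and Lrp2bp. The libraries were stranded, but whether the counting used strand is not given in the sources used here, so reads of such pairs may not be told apart. On the same strand, 8 of the 34 genes overlap a gene, such as Slc2a3 with Gm4482, and strand cannot separate those reads.

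Both lactate dehydrogenase genes changed by smaller amounts than Pgk1 or Eno1. Ldha, which favours lactate, had 3173, 3222 and 3270.4 CPM in Ad-Control and 2711, 2753 and 2794 CPM in Ad-OSCAR cultures, a log2 change of -0.23 (SE 0.03, adjusted p = 1.45e-05). Ldhb, which favours pyruvate, held 1.24% ± 0.0691 (SD, n = 3) of the TPM of the pair in Ad-Control. It had 29.4, 30.3 and 32.1 CPM in Ad-Control and 34.3, 36.0 and 34.05 CPM in Ad-OSCAR cultures, and its rise of 0.18 (SE 0.06, adjusted p = 0.0106) was lost with DESeq2 and without Ad-Control culture 1.

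The 2 lactate carriers went apart. Slc16a3 (MCT4), the carrier of strongly glycolytic cells and a HIF target, had 476, 451 and 492 CPM in Ad-Control and 258, 248 and 242 CPM in Ad-OSCAR cultures (log2 change -0.93, SE 0.05, adjusted p = 4.59e-12). Slc16a1 (MCT1), which can also carry lactate into cells, rose from 411, 417 and 404 to 542, 539.8 and 537 CPM (log2 change 0.39, SE 0.04, adjusted p = 5.47e-08). For both carriers the values of the groups stood clear of each other.

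Of the regulators of flux, Pdk1 (chr2:71873224-71903858), the kinase that shuts pyruvate out of the mitochondrion, had 168, 179.9 and 161 CPM in Ad-Control and 81.1, 74.4 and 79.1 CPM in Ad-OSCAR cultures. It was at 0.461 times the control level (log2 change -1.12, SE 0.06, adjusted p = 6.48e-12). Pfkfb3, which makes the activator of phosphofructokinase, fell by 0.33 on the log2 scale (SE 0.04) from 287, 291 and 290.2 to 229, 233 and 228 CPM. Pfkfb4, of the same family, had 7.55, 9.12 and 6.29 CPM in Ad-Control and 6.96, 7.22 and 7.31 CPM in Ad-OSCAR cultures, and its interval of -0.35 to 0.14 (log2, adjusted p = 0.424) included 0.

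Both HIF factors were higher in transcript with Ad-OSCAR. Epas1 (chr17:86753700-86833410) had 171, 165 and 174 CPM in Ad-Control and 322, 320.4 and 305 CPM in Ad-OSCAR cultures, a 1.86-fold difference (log2 change 0.90, SE 0.05, adjusted p = 4.42e-12). Hif1a had 893, 925 and 864 CPM in Ad-Control and 999.5, 976 and 1068 CPM in Ad-OSCAR cultures (log2 change 0.18, SE 0.05, adjusted p = 0.00277). The groups of each gene did not overlap, but the change in Hif1a was small. The prolyl hydroxylases, themselves known HIF targets, went in opposite directions. Egln1 (chr8:124908587-124949324), the main HIF hydroxylase in most cells, fell from 193, 204 and 193 to 99.7, 99.5 and 97.9 CPM (log2 change -0.99, SE 0.05, adjusted p = 9.25e-12). Egln3 rose from 28.5, 27.3 and 30.3 to 45.9, 47.6 and 45.5 CPM (log2 change 0.69, SE 0.06, adjusted p = 3.34e-09).

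The other HIF targets split as well. Ndrg1 (chr15:66929318-66969640), a stress-responsive gene often used as a marker of hypoxia, showed the largest change of the 34 genes, from 232, 237 and 242 CPM to 71.8, 76.3 and 71.7 CPM. It was 3.24-fold lower (log2 change -1.69, SE 0.05, adjusted p = 3.86e-15). Vegfa, the growth factor for blood vessels, rose from 204, 216 and 212 to 333, 355 and 314 CPM (log2 change 0.67, SE 0.05, adjusted p = 7.6e-10). Bnip3, which marks mitochondria for removal, fell from 449, 485 and 453 to 290.5, 277 and 314 CPM (log2 change -0.65, SE 0.06). The 2 membrane carbonic anhydrases, which handle the acid of glycolytic cells, moved apart. Car9 (chr4:43506966-43513729) had 102, 102 and 108 CPM in Ad-Control and 147, 143 and 154 CPM in Ad-OSCAR cultures (log2 change 0.51, SE 0.06, adjusted p = 2.44e-07), and Car12 had 64.8, 67.2 and 72.1 CPM in Ad-Control and 32.0, 29.9 and 34.2 CPM in Ad-OSCAR cultures (log2 change -1.08, SE 0.06, adjusted p = 2.44e-11). Ankrd37, at 2.69, 2.71 and 3.44 CPM in Ad-Control and 3.16, 4.39 and 3.09 CPM in Ad-OSCAR cultures, had an interval of -0.09 to 0.63 (log2, adjusted p = 0.182), and it passed as higher in 1 alternative, library totals as the only scaling (0.39, adjusted p = 0.049).

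**Figure D3:**
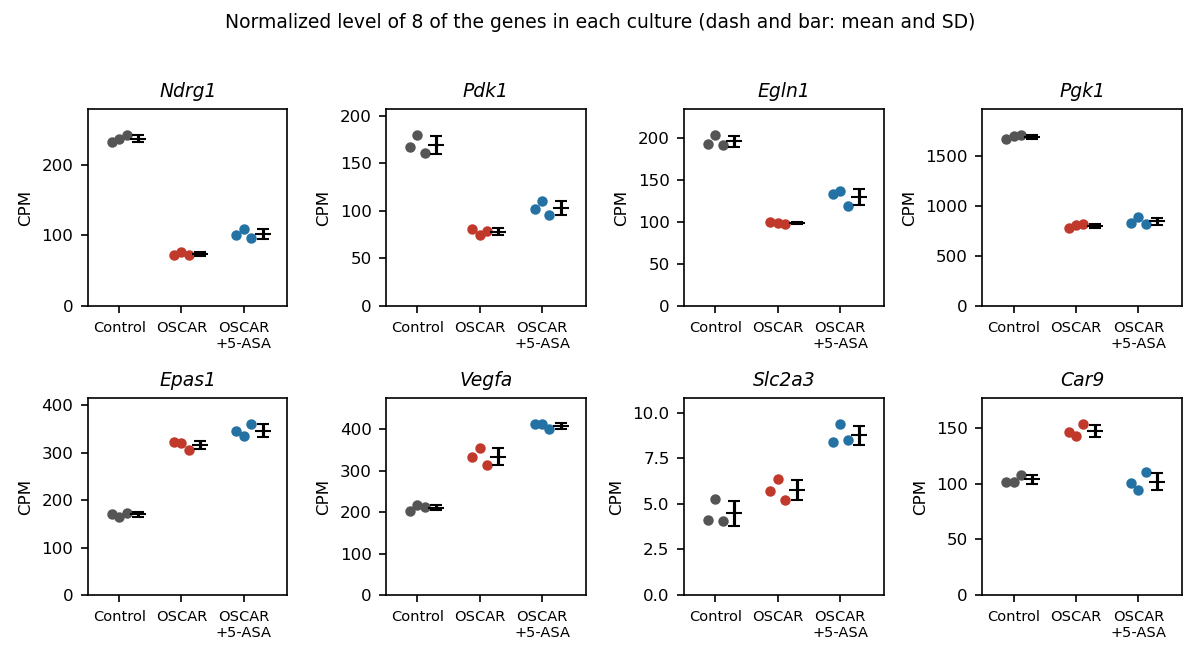
TMM-normalized CPM of 8 of the genes in each of the 9 cultures, with the mean and SD of 3 cultures beside each group; axes start at 0. Ndrg1, Pdk1 and Egln1 drop with Ad-OSCAR and lie higher again after 5-ASA without reaching the control values, Pgk1 stays low, Epas1, Vegfa and Slc2a3 are highest after 5-ASA, and Car9 is high in the Ad-OSCAR cultures alone.

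Because isozymes of one step moved differently, the share of each in the TPM of its step was computed per culture and compared with an exact two-sided permutation test, which cannot give a p below 0.1 for 3 cultures against 3. Hk2 made up 21.3, 23.4 and 21.5% of hexokinase TPM in the Ad-Control cultures (mean 22.1% ± 1.14, SD, n = 3), 34.7, 34.4 and 33.2% in the Ad-OSCAR cultures and 37.9, 40.0 and 37.0% after 5-ASA. The groups stood apart in both comparisons (exact permutation p = 0.1 each, 0.164 after adjustment over 18 tests). Eno2 held 4.10, 4.73 and 4.17% of the TPM of Eno1 and Eno2 in Ad-Control, 12.2% ± 0.137 (SD, n = 3) in Ad-OSCAR and 11.2, 10.5 and 11.9% after 5-ASA. The difference between the first groups was 7.86 percentage points, and 6.02 with Eno1b alone of the copies added to Eno1. Slc16a3 held 74.2, 73.0 and 75.6% of the TPM of both lactate carriers in Ad-Control, 53.3, 52.6 and 53.0% in Ad-OSCAR and 53.6, 51.9 and 53.4% after 5-ASA, so the share stayed apart from the control while the treated and untreated values overlapped. Pfkm made up 11.1% ± 0.0279 (SD, n = 3) of phosphofructokinase TPM in Ad-Control and 16.0% ± 0.207 in Ad-OSCAR cultures, and Pfkl 66.1% ± 0.681 and 62.3% ± 1.28. Aldoc, Ldhb and Slc2a3 were minor isozymes in all cultures, with at most 2.48%, 1.76% and 2.54% of the TPM of their steps. Of the 9 shares, 7 had groups that did not overlap for Ad-OSCAR against Ad-Control, and none could pass a threshold of 0.05 in this design. The shares come from the same cultures as the changes of the single genes and add no separate evidence for them.

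**Figure D4:**
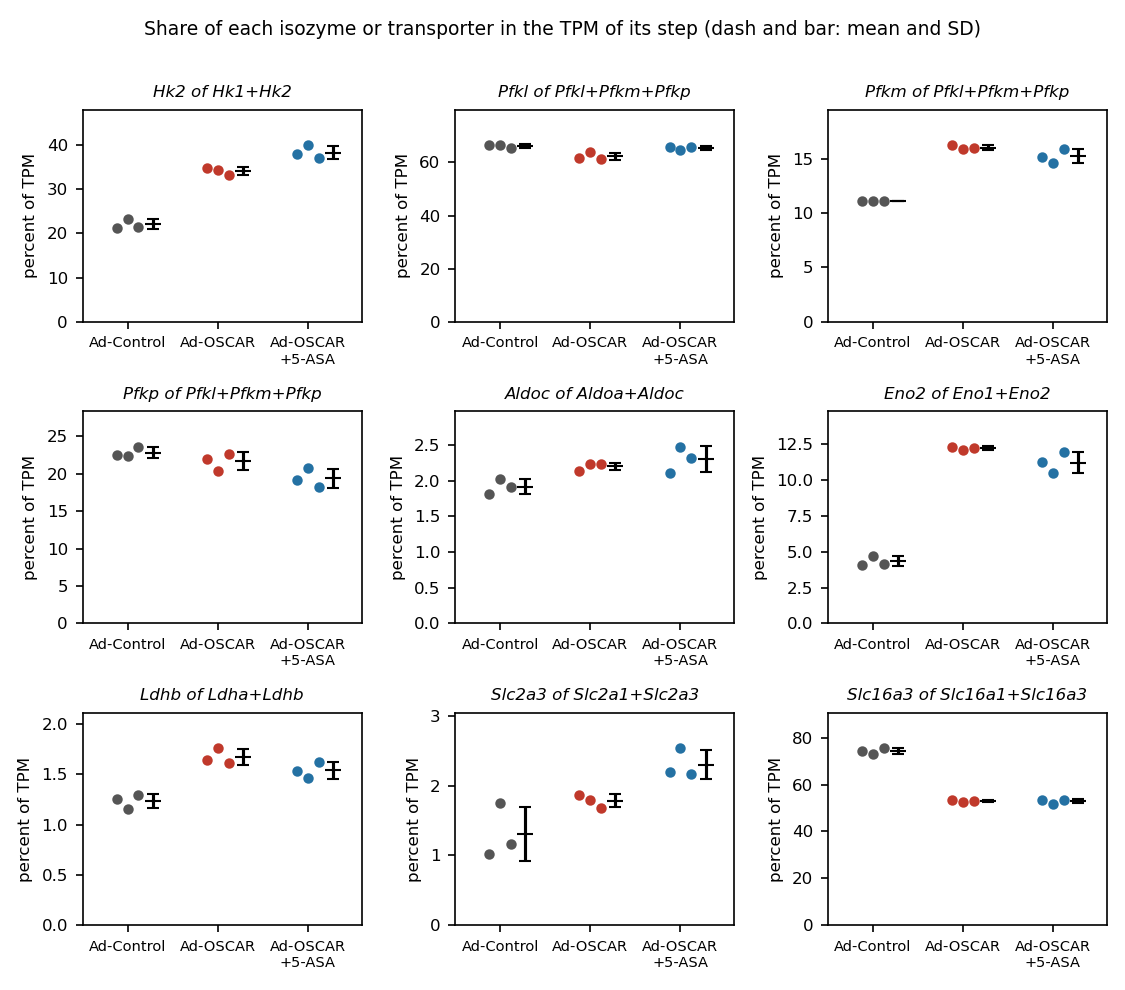
Percent of the summed TPM of a step that came from one of its genes, per culture (points), with the mean and SD of 3 cultures; axes start at 0. The Hk2 share is near 22% in Ad-Control, 34% in Ad-OSCAR and 38% after 5-ASA, and the Slc16a3 share is near 74% in Ad-Control and 53% in both other groups.

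The second comparison asked what 5-ASA did in cells that overexpress OSCAR, and more members rose than fell, with small changes that depended in part on the scaling. Of the 34 genes, 18 passed an adjusted p of 0.05, beside 17.8% of all genes tested. Of these, 16 were higher (10.4% of all genes tested were) and 2 were lower (7.38% of all genes tested were), and the median log2 fold change was 0.10, against -0.00 over all genes. The split depended on the scaling. With library totals alone, 10 members were higher and 7 lower, and on log2(TPM + 1) with limma 6 were higher and 7 lower, with a median of 0.01. Of the 16 higher calls, 6 held under these scalings and in each of the other alternatives, namely those for Pfkl, Pdk1, Pfkfb3, Vegfa, Egln1 and Ndrg1, while the calls for Slc2a1, Slc2a3, Hk2, Aldoc, Eno1, Slc16a1, Slc16a3, Hif1a, Epas1 and Bnip3 were lost under at least one scaling. Both lower calls, Car9 and Car12, held under each scaling, and the call for Car12 was lost without Ad-OSCAR culture 1 or 3 or without treated culture 1 or 3. The study's threshold for the drug was |FC| > 1.5 with the p left unadjusted and below 0.05, and its methods set treated Ad-OSCAR cells against Ad-Control. Applied here to treated against untreated cultures instead, this threshold was met by 4.15% of all genes, and Slc2a3 was the only member called. The Oscar transcript itself was lower in the treated cultures, at 2946 to 3723 CPM against 6354 to 7112 CPM, and its part in these differences was not tested.

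**Figure D5:**
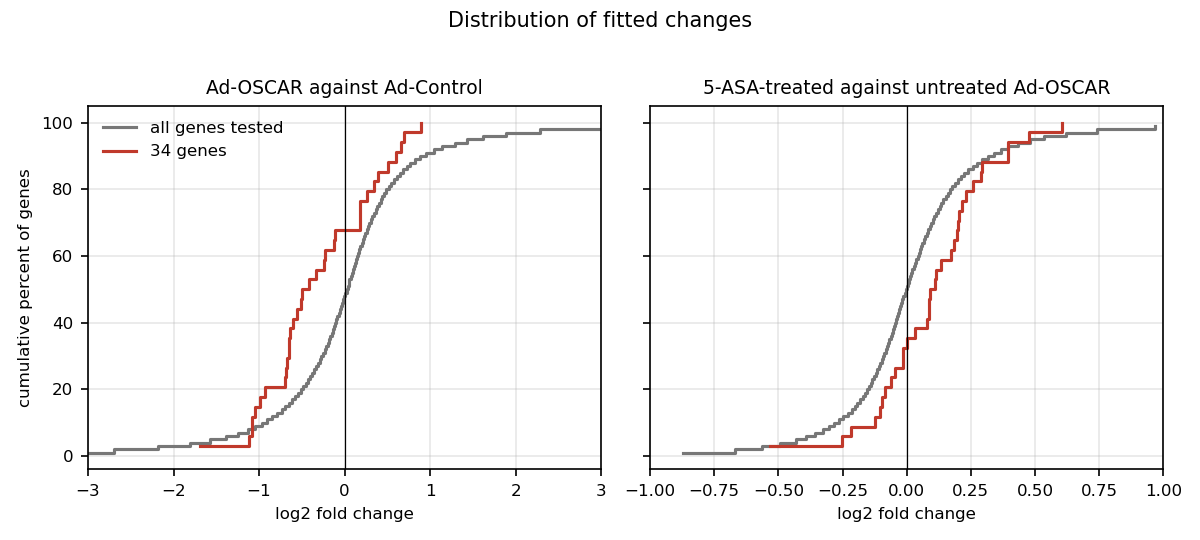
Cumulative percent of genes by fitted log2 fold change, for the 34 genes (red) and for all 15362 genes tested (grey), in both comparisons. With Ad-OSCAR the red line lies left of the grey one (medians -0.46 and 0.02), and with 5-ASA it lies right of it by a smaller distance (medians 0.10 and -0.00); the axes differ in scale.

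Outside the enzymes, 12 of 17 members rose and 2 fell with 5-ASA, beside 10.4% of all genes tested higher and 7.38% lower. Their median log2 change was 0.20. The rises of Slc2a1, Slc2a3, Slc16a1, Slc16a3, Hif1a, Epas1 and Bnip3 lost their call under at least 1 scaling. The steadiest calls concerned regulators and HIF targets. Ndrg1 rose from 71.8, 76.3 and 71.7 CPM in untreated to 101, 109 and 95.9 CPM in treated Ad-OSCAR cultures (log2 change 0.48, SE 0.05, adjusted p = 4.3e-06). Pdk1 rose from 81.1, 74.4 and 79.1 to 102, 110.2 and 95.7 CPM (log2 change 0.39, SE 0.06, adjusted p = 0.000105). Egln1 rose from 99.7, 99.5 and 97.9 to 133, 138 and 119 CPM (log2 change 0.39, SE 0.05, adjusted p = 3.83e-05). Treated values of these 3 genes lay above all untreated ones and below all Ad-Control ones. Pfkfb3 came to 283, 284 and 278 CPM, next to its Ad-Control values of 287, 291 and 290.2 CPM, after 229, 233 and 228 CPM without the drug (log2 change 0.29, SE 0.04, adjusted p = 4.38e-05). Vegfa, already higher with Ad-OSCAR, rose further to 412, 412 and 399 CPM (log2 change 0.29, SE 0.05, adjusted p = 0.000293). Car9 moved against the rest, from 147, 143 and 154 CPM in untreated to 101, 94.9 and 111 CPM in treated cultures (log2 change -0.53, SE 0.06, adjusted p = 2.28e-06), and Car12 came to 26.5, 29.8 and 26.4 CPM (log2 change -0.22, SE 0.07).

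Among the 17 enzymes, 4 passed as higher with 5-ASA (Hk2, Pfkl, Aldoc and Eno1) and none passed as lower with TMM scaling. Of all genes tested, 10.4% were higher and 7.38% lower. On log2(TPM + 1) the call for Pfkl alone of these 4 held. Pfkl rose from 300.2, 305 and 289.8 to 354, 342 and 354 CPM (log2 change 0.23, SE 0.04, adjusted p = 0.000599) and Hk2 from 113, 111 and 102 to 125, 127 and 122 CPM (log2 change 0.20, SE 0.05, adjusted p = 0.00647). Eno1, at an adjusted p of 0.0476, came to 1172, 1171 and 1134 CPM. Its call was lost in 14 of the alternatives, the replicate block among them (adjusted p = 0.0634), and that for Epas1 in 13, the block among them (adjusted p = 0.0687). The most abundant enzymes had values below all untreated ones, with 1719.5, 1692 and 1703 CPM of Gapdh, 2534, 2405 and 2619 of Pkm and 2676, 2649 and 2685 of Ldha in the treated cultures. Their log2 differences were -0.10 (95% interval -0.18 to -0.03), -0.09 (-0.18 to -0.01) and -0.04 (-0.12 to 0.03), with adjusted p-values of 0.0629, 0.118 and 0.436. On log2(TPM + 1) these 3 genes, Pgam1 and Ldhb passed as lower, with differences of -0.25, -0.20, -0.13, -0.17 and -0.25. For Hk1, Egln3 and Eno2 the intervals of -0.10 to 0.07, -0.11 to 0.11 and -0.11 to 0.08 were centred near 0.

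Of the transporters, Slc2a3 had the largest rise of the 34 genes with 5-ASA, from 5.70, 6.36 and 5.24 to 8.39, 9.38 and 8.50 CPM (log2 change 0.61, SE 0.11, adjusted p = 0.000866), at levels that remain a small part of glucose transporter RNA. Slc2a1 changed by 0.21 (SE 0.04), Slc16a1 by 0.20 (SE 0.04) and Slc16a3 by 0.18 (SE 0.05). Treated cultures had 294, 273 and 281 CPM of Slc16a3, still well below the Ad-Control values. The call for Slc16a3 was also lost without Ad-OSCAR culture 3 and without treated culture 1.

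The third comparison set treated Ad-OSCAR cultures beside Ad-Control, and it shares the control cultures with the first. Of the 34 genes, 27 differed by adjusted p, beside 63.2% of all genes tested. Of these, 19 were lower (31.8% of all genes tested were) and 8 were higher (31.4% of all genes tested were), the median log2 fold change was -0.33 against 0.01 over all genes, and each of the 27 calls held in every alternative tried. Pgk1 remained at 0.500 times and Eno1 at 0.522 times the Ad-Control level, with 829.6, 892 and 824 CPM of Pgk1 and 1172, 1171 and 1134 CPM of Eno1. Ndrg1 was 2.32-fold lower and Car12 2.47-fold lower than in Ad-Control. Epas1, Vegfa and Slc2a3 stood 2.04-fold, 1.94-fold and 1.94-fold above it, with 345, 334 and 359.8 CPM of Epas1 in the treated cultures. The other 7 genes did not pass. For Slc2a1, Pfkfb3 and Car9 the 95% intervals were -0.12 to 0.06, -0.12 to 0.04 and -0.15 to 0.09 (log2), which bounds any remaining difference, all 3 were positive with library totals as the only scaling, and Pfkfb3 passed as lower on TPM. Pfkm and Ldhb had intervals of -0.12 to 0.10 and -0.06 to 0.19, and those of the rare Pfkfb4 and Ankrd37 were wider, at -0.42 to 0.08 and -0.36 to 0.38.

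Neighbouring parts of the pathway were read in the same fits, in which 32.7% of all genes tested were higher and 32.2% lower with Ad-OSCAR. Of 12 genes for the entry of pyruvate into mitochondria, 5 were higher and 5 lower with Ad-OSCAR. Pdp1, the phosphatase that activates pyruvate dehydrogenase, fell from 45.7, 44.0 and 42.8 to 18.9, 20.4 and 20.4 CPM (log2 change -1.15, SE 0.06). Of the kinases that oppose it, Pdk3 fell as Pdk1 had, from 47.7, 54.4 and 50.4 to 21.4, 24.2 and 24.5 CPM, and Pdk4 rose from 3.30, 3.16 and 2.43 to 6.48, 5.66 and 6.98 CPM. Of 14 genes of the pentose phosphate and glycogen branches, 10 fell and 2 rose, among them Ugp2 (-0.77), the glycogen synthase Gys1 (-0.75) and transketolase, Tkt (-0.73, all log2 changes). With library totals alone 6 of these genes were lower and 3 higher. Of 12 further isozymes tested out of 20, 5 were lower and 1 higher, with Eno1b at -1.12, Gpd1 at -0.91 and Eno3 at -0.59. Eno1b is the near-identical copy of Eno1 named above, so the reads of these 2 genes cannot be fully told apart. With library totals alone 4 of the further isozymes were lower and 3 higher.

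Of 12 genes that act with or on the HIF proteins, 5 were higher and none lower with Ad-OSCAR. They included Hif3a, a family member that can restrain the others, with 0.755, 0.370 and 0.581 CPM in Ad-Control and 1.83, 1.89 and 1.38 CPM in Ad-OSCAR cultures, the dimer partner Arnt2 with 7.504, 6.20 and 5.81 CPM against 10.8, 10.9 and 11.7 CPM, and the co-activator Ep300 with 101, 103 and 109 CPM against 136, 134 and 139.6 CPM. With library totals alone 10 of these 12 genes were higher, and on log2(TPM + 1) 3 of the 11 tested were, with none lower under either scaling. Of 28 further HIF targets tested, 14 fell and 11 rose, beside the same background of 32.2% and 32.7%. The collagen prolyl hydroxylase P4ha2 fell from 681, 684 and 666 to 317, 305 and 308 CPM (log2 change -1.13, SE 0.04), and Angptl4, a secreted inhibitor of lipoprotein lipase, rose from 125, 115 and 118 to 231, 230.0 and 213 CPM. With 5-ASA, 11 of the 28 were higher and 3 lower, and 4 of the 12 pyruvate genes were higher and none lower, beside 10.4% of all genes higher and 7.38% lower. These counts also depended on the scaling, with 8 and 6 of the HIF targets and 3 and 1 of the pyruvate genes higher and lower with library totals alone, and 3 and 4 of 27 and 1 and 0 of 12 on log2(TPM + 1). Angptl4 had 299.9, 279 and 295 CPM in the treated cultures.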

How the data were processed

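Sequencing covered 9 cultures in 3 groups of 3 (Ad-Control, Ad-OSCAR, Ad-OSCAR with 5-ASA), assigned by the sample annotations. The authors trimmed reads with BBDuk, aligned them to GRCm38 with STAR 2.7.1a and deposited RSEM 1.3.1 estimated counts and TPM per gene, 1 culture per file. RSEM divides a read that matches several genes between them. The study's reporting summary names RSEM 1.2.17 with Gencode v22 for TPM, and which version made the deposited TPM was not settled here. Coordinates are those of Gencode M21 on GRCm38.

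Estimated counts were rounded here and fitted in edgeR 4.0.16 with TMM scaling, filterByExpr and 1 quasi-likelihood model over the 9 cultures that held group alone. Every adjusted p is Benjamini-Hochberg over 15362 genes, fold changes are on the log2 scale, SE is the log2 change over the square root of F, and intervals are 95%. CPM compare 1 gene across cultures, and TPM compare genes. Near-identical copies share at least 95% identity over 200 bases (minimap2 2.31). The script was tested on simulated data. DESeq2 1.42.0, limma 3.58.1 on log2(TPM + 1) for genes with a mean of at least 1 TPM, and other scalings, filters and left-out cultures were tried. Total counts were 19733431 to 28192725 per culture, and the biological coefficient of variation was 5.11%.

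All 34 genes are named, with Oscar, at most 3 genes of each further list (the largest changes called with Ad-OSCAR at a mean of at least 1 CPM), and copies or overlapping genes. A gene of the further HIF targets that this rule names is not reported here. The members and lists were chosen with earlier results of these data known.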

Additional observations from a re-analysis of the deposited data

How the results depend on the processing

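Every change below is log2. Library totals as the only scaling shifted the median of all genes by 0.13, -0.07 and 0.06 in the 3 comparisons (Ad-OSCAR against Ad-Control, 5-ASA-treated against untreated, treated against Ad-Control). The members' medians became -0.33, 0.029 and -0.28. With 5-ASA, 10 members were then higher and 7 lower, of all genes 1057 were higher and 2523 lower, and Pfkp (-0.038) and Egln3 (-0.069) changed sign. So did Pfkm (0.0037) and Pfkfb4 (0.017) with Ad-OSCAR, and Slc2a1 (0.028), Pfkm (0.042), Pfkfb3 (0.016) and Car9 (0.029) in treated against Ad-Control. None of these 8 passed the test in either scaling, except Pfkm with Ad-OSCAR, which passed under TMM. On log2(TPM + 1) with limma the medians were -0.40, 0.0083 and -0.41. With 5-ASA, 6 members were higher and 7 lower, 547 genes in all were higher, and the sign changed for Gpi1 (-0.018), Pfkp (-0.076), Aldoa (-0.011), Pgk1 (-0.012) and Egln3 (-0.091). Pfkfb4 was at 0.29 with Ad-OSCAR, and treated against Ad-Control gave Ldhb at -0.014, Ankrd37 at -0.18 and 2986 genes higher. With log2(TPM + 0.1) the medians were -0.41, 0.0084 and -0.41, 6 members were higher and 8 lower with 5-ASA, 549 genes in all were higher, Pfkfb4 was at 0.34, Gpi1, Pfkp, Aldoa, Pgk1 and Egln3 at -0.018, -0.077, -0.011, -0.012 and -0.094, Ldhb at -0.015, Ankrd37 at -0.20, and 3013 genes were higher in treated against Ad-Control. The cause of these shifts was not tested. Egln3 with 5-ASA was at -0.0003 with at least 10 counts in every culture and at -0.0033 with only the 2 groups compared. DESeq2 called 8 members higher and 22 lower with Ad-OSCAR, and 17 and 3 with 5-ASA.

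Same-numbered cultures did not deviate together (correlations of -0.0724 to 0.0402). Whether they share more than a number, such as a cell preparation, is not given, and these correlations cannot settle it. With that number as a replicate block, 10 members were higher and 21 lower with Ad-OSCAR, 14 and 2 with 5-ASA and 8 and 19 in treated against Ad-Control. The 3 calls lost were Pfkm with Ad-OSCAR (-0.12) and Eno1 (0.11) and Epas1 (0.13) with 5-ASA, and the other 99 values of the 34 genes kept their side of the threshold.

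With each culture left out in turn, the members' median ranged from -0.47 to -0.43 with Ad-OSCAR and from 0.090 to 0.11 with 5-ASA, where 1 to 2 members and 721 to 1127 genes in all were lower. Values that changed sign, none of them called, were Pfkfb4 (-0.23 to 0.041) with Ad-OSCAR, Hk1 (-0.027 to 0.0050), Pfkp (-0.0023 to 0.075), Eno2 (-0.039 to 0.0057) and Egln3 (-0.025 to 0.043) with 5-ASA, and Pfkm (-0.050 to 0.027), Ankrd37 (-0.046 to 0.13) and Car9 (-0.089 to 0.023) in treated against Ad-Control. Calls were lost for Slc2a3 and Ldhb as given above, for Pfkm without Ad-Control culture 1 or 2, any Ad-OSCAR culture or treated culture 1, and with 5-ASA for Aldoc, Eno1, Epas1, Slc16a3 and Car12, while Pfkfb4 in treated against Ad-Control passed without Ad-Control culture 3.

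As shares of estimated counts, not per length, the differences with Ad-OSCAR were 10.9 percentage points for Hk2, 3.997 for Pfkm, 8.40 for Eno2, 0.306 for Ldhb and 0.776 for Slc2a3. With 5-ASA the difference for Slc2a3 was 0.698. On TPM with Eno1b alone of the copies added to Eno1, the difference for Eno2 with Ad-OSCAR was 6.02. Depth limited precision most for Slc2a3, Pfkfb4 and Ankrd37, which had the lowest TPM and the widest intervals.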
